A study of Mus musculus with 11 samples.

Results

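The Shank, Homer and Dlg genes encode the scaffold proteins that hold the machinery of excitatory synapses beneath the postsynaptic membrane. The set was fixed by name, with earlier results of these data known. It holds Shank1, Shank2, Shank3, Homer1, Homer2, Homer3, Dlg1, Dlg2, Dlg3 and Dlg4. All 10 had a row in both of the tables used here, among 14667 genes in all. RNA came from the nucleus accumbens, a part of the ventral striatum involved in reward, of 11 C57/BL6 mice, with 1 mouse per library. A virus delivered to the brain made the tissue overexpress either the transcription factor variant E2F3a or green fluorescent protein (GFP), the control protein, and mice were then given saline or cocaine. The groups were GFP with saline (4 mice), GFP with cocaine (3 mice) and E2F3a with saline (4 mice), so every mouse here carried a virus. The sources used here do not give the age and sex of the mice, the kind of virus, its promoter, the cells it entered, or the dose and timing of cocaine. Whole dissected tissue was sequenced, so transduced cells and their neighbours were measured together, and fewer cells of a type cannot be told apart from less RNA per cell.

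The tables hold comparison statistics made by the authors and no value for a single mouse, so levels per mouse, overlap between groups and sequencing depth are unknown. The targeted gene was checked first. In the authors' deposited table E2f3 stood at a log2 fold change of 1.01 with E2F3a (unadjusted p = 0.000337, adjusted p = 1.00 over all genes). The standard error (SE) implied by the deposited t was 0.20. All 12 medium spiny neuron markers had a row, with a median mean log2 expression of 8.04 in the authors' deposited table against 4.79 over all genes. Spread between mice is given below as the residual SD that the deposited statistics imply when each library counts equally. It comes from a moderated t, which also draws on the spread of other genes, so it can differ from the gene's own SD.

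A Dlg protein, a Shank protein and a Homer protein form successive layers of the postsynaptic density. The Dlg proteins belong to the membrane-associated guanylate kinases and bind, through PDZ domains, the tails of NMDA receptors, potassium channels and neuroligins. SAPAP adaptors, encoded by the Dlgap genes, join them to the Shank proteins, which are large scaffolds that reach the actin cytoskeleton. Homer proteins bind Shank, group I metabotropic glutamate receptors and inositol trisphosphate receptors through an EVH1 domain, and long Homer forms cross-link these partners through a coiled coil. The short form Homer1a, made by the Homer1 gene after strong neuronal activity, lacks the coiled coil and uncouples them. In the striatum, Homer and Shank proteins have been studied in relation to cocaine and to repetitive behaviour.

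The Shank genes lie on mm10 at chr7:44310253-44360572 (Shank1, plus strand, ENSMUSG00000038738), chr7:144001928-144424494 (Shank2, plus strand, ENSMUSG00000037541) and chr15:89499623-89560261 (Shank3, plus strand, ENSMUSG00000022623), as annotated in GENCODE M21. Homer1 is at chr13:93299635-93405129 (plus strand, ENSMUSG00000007617), Homer2 at chr7:81600481-81707527 (minus strand, ENSMUSG00000025813) and Homer3 at chr8:70282827-70294361 (plus strand, ENSMUSG00000003573). Dlg1 is at chr16:31663443-31875129 (ENSMUSG00000022770), Dlg2 at chr7:90476672-92449247 (ENSMUSG00000052572), Dlg3 at chrX:100767722-100818410 (ENSMUSG00000000881) and Dlg4 at chr11:70016942-70047522 (ENSMUSG00000020886), all on the plus strand. All 10 are protein-coding genes. They differ widely in size, from 11.5 kb for Homer3 to 1972.6 kb for Dlg2 on the chromosome. The longest annotated coding sequences have 2167 codons for Shank1, 1841 for Shank2 and 1805 for Shank3, against 370, 354 and 359 for Homer1, Homer2 and Homer3. Those of the Dlg genes run from 767 codons for Dlg4 to 957 for Dlg2.

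The values are sums over all transcripts of a gene, so isoforms were not told apart. For Homer1 this joins 11 annotated protein-coding transcripts, among them one of 5713 bases with 5 exons and 186 codons, of the length of Homer1a, and one of 4287 bases with 9 exons and 370 codons. A rise in one form and a fall in another would not show. Dlg4 has 17 annotated protein-coding transcripts and Shank1 has 3. The TruSeq RNA kit that the labels name does not mark strand, and Homer3 shares 25.41% of its exon bases with Ddx49 on the opposite strand. Reads from that overlap cannot be assigned by strand, and values of Homer3 are uncertain for that reason. In the authors' deposited tables Ddx49 stood at -0.08 with cocaine (SE 0.11) and at -0.09 with E2F3a (SE 0.10). Exons shared with other genes made up at most 4.16% of any other member (Homer2, with an antisense gene).

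Since one factor here is a DNA-binding protein, the sequences before the transcription starts are shown for 4 members. The windows are the 250 bases before RefSeq starts (GRCm38.p6, the assembly of mm10), and 18 such windows were found for 8 of the 10 members. Shank1 and Shank2 had no entry. Each window was searched on both strands for the E2F consensus (TTTCCCGC, TTTCGCGC, TTTGCCGC or TTTGGCGC), for the same letters without the first T, for the CRE half-site TGACG bound by CREB, and for the Sp1 box GGGCGG. The shorter E2F letters lie within the longer ones and were added after the longer ones had been searched. The windows printed were chosen for the motifs they hold and for lying outside annotated exons, and capitals mark the matches.
Shank3, chr15:89499358-89499607, plus strand: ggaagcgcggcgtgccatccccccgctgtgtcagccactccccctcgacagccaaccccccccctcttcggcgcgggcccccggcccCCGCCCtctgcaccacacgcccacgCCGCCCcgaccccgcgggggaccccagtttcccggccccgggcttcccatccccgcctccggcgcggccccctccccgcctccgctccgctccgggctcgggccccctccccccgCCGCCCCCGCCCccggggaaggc
Homer1, chr13:93303507-93303756, plus strand: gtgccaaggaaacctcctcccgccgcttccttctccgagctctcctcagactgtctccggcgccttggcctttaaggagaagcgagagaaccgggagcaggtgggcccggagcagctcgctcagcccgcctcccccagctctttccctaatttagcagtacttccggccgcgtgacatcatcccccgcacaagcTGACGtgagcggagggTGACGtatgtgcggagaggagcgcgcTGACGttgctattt
Dlg1, chr16:31695298-31695547, plus strand: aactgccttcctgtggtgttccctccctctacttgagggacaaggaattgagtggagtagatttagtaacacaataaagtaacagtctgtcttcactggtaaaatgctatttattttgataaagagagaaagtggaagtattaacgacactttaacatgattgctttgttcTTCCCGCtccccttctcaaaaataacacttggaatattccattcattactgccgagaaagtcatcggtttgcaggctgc
Dlg3, chrX:100774245-100774494, plus strand: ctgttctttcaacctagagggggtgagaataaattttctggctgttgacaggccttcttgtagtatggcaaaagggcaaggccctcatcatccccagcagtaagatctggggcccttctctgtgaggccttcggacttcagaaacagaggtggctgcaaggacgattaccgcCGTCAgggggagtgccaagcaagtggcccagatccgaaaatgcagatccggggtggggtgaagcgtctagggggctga

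The full E2F consensus was found in 0 of the 18 windows, and 1.86% of all 32851 windows of the same length hold it. The Dlg1 window shown, before a start inside the gene, holds the shorter E2F letters at 79 bases before the start, as 7.89% of all windows do. The Homer1 window holds 3 CRE half-sites, starting 56, 40 and 14 bases before the start. At least 3 are held by 0.688% of all windows, and at least 1 by 17.8%. The Dlg3 window has 1 CRE half-site, 78 bases before the start. The Shank3 window has 4 Sp1 boxes and a GC content of 82.4%, against 53.2% on average over all windows. At least 4 Sp1 boxes are held by 4.09% of all windows, and at least 1 by 32.7%. Over all 18 windows, 7 windows of 6 members held an Sp1 box and 3 windows of 3 members a CRE half-site. A Homer2 window held 8 Sp1 boxes at a GC content of 83.2%, a Homer3 window held 4, and a Dlg4 window held 1 CRE half-site. The 3 windows of Dlg2 held none of these letters. A match is a description of the sequence, and binding was not measured.

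Dlg4, which encodes PSD-95, an abundant scaffold of the postsynaptic density, had the highest level of the set. Its mean log2 expression over the libraries was 9.24 in the authors' deposited table, on a scale close to log2 CPM (reads of a gene scaled to the size of the library), which placed it at rank 142 of 14667 genes. Set per kilobase of annotated exon, its mean log2 level was 5.51 with an implied residual SD of 0.24. Dlg3, which encodes SAP102, followed at 4.71 (residual SD 0.18) and Shank3, the Shank whose loss causes a human neurodevelopmental syndrome, at 4.61 (0.37), also as log2 levels per kilobase of exon. Dlg1, which encodes SAP97, stood at 4.26 (0.14) and Dlg2, which encodes PSD-93, at 4.18 (0.30) on that scale. The log2 levels of Dlg3, Shank3, Dlg1 and Dlg2 lay within the spread between mice from one neighbour to the next. That spread is of single mice and not the error of a mean, so it cannot show whether the order of the means is resolved.

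Lower on the per-kilobase scale came Homer1 at 3.50 (residual SD 0.34), Shank2 at 3.43 (0.24) and Shank1 at 3.31 (0.40), and these 3 differed from one to the next by less than the spread. Homer3 and Homer2 were last, at log2 levels per kilobase of 0.63 (0.22) and 0.62 (0.49). Of the 9 neighbouring pairs in this order, 3 differed by more than the larger of their residual SDs. These were Dlg4 over Dlg3 (0.80), Dlg2 over Homer1 (0.68) and Shank1 over Homer3 (2.68). With the length of the longest transcript in place of the exon union, Dlg4 stayed first and Homer2 and Homer3 last, and Dlg2 followed Dlg4 at a log2 level of 5.24 per kilobase. That scale also put Homer1 (4.57) beyond the spread from both of its neighbours. Both scales divide the Homer2 value by a long annotation. Its exon union has 12.62 kb and its longest transcript 10982 bases, with 290 codons. The Homer2 form with 354 codons has 1634 bases. Which form was expressed is unknown, so the place of Homer2 per kilobase depends on the length used.

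**Figure D1:**
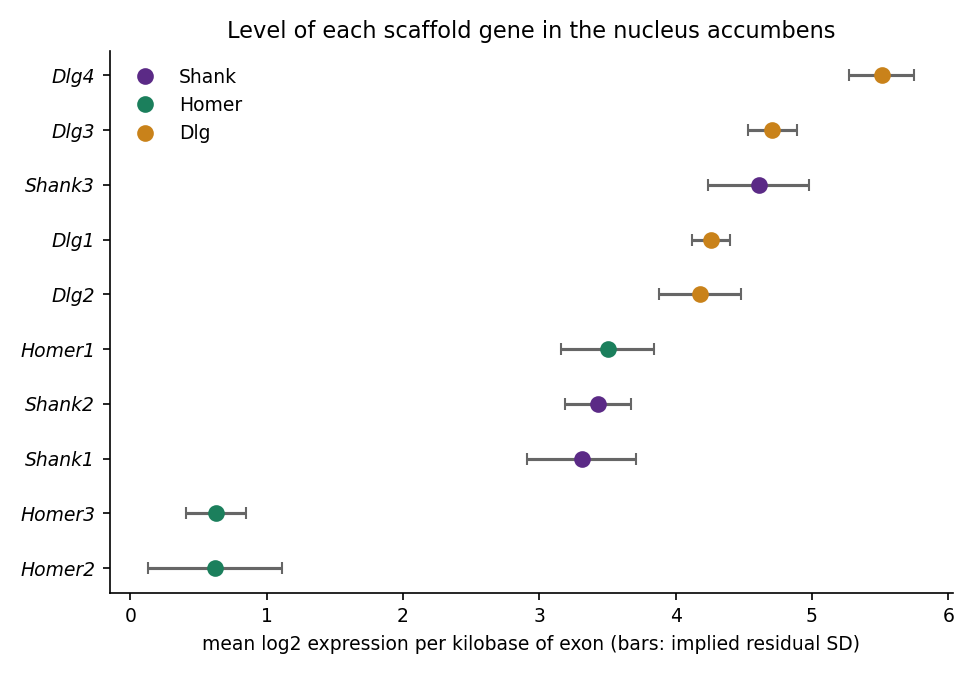
Mean log2 expression per kilobase of annotated exon (x axis) for each scaffold gene, ordered by level and coloured by family, with bars for the implied residual SD between mice. Dlg4 stands alone at 5.51, and Homer3 and Homer2 lie near 0.63 and 0.62, far below the other 8 genes on this scale. The place of Homer2 depends on the length used, as its annotated forms differ widely in length.

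Cocaine was compared with saline in the mice that expressed GFP only. The estimates of 9 of the 10 scaffold genes lay above 0, with the Shank genes and Dlg2 highest and Homer3 alone below 0. By the authors' moderated test 0 of the 10 passed an adjusted p of 0.05, as did 0% of all genes in that comparison. At an unadjusted p under 0.05, 1 of the 10 members was higher (Shank2) and 0 were lower, where 1.74% of all genes were higher and 7.51% lower by the same rule. With a fold over 1.3 required as well, in either direction, the count stayed at 1 of 10, against 7.02% of all genes. The median log2 fold change of the members was 0.25 and that of all genes -0.02 in the authors' deposited table, and 46.2% of all genes had an estimate above 0.

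Among the Shank genes, Shank2, which encodes a postsynaptic scaffold also called ProSAP1, stood at a log2 fold change of 0.47 in the authors' deposited table, a fold of 1.38 (unadjusted p = 0.0278, adjusted p = 0.533). Its SE was 0.19 and its 95% interval ran from 0.06 to 0.88, the one interval of the 10 that left out 0. By unadjusted p it ranked 737th of the 14667 genes. With the trend in length and expression over all genes removed, the Shank2 estimate was 0.29 against the same SE of 0.19 (adjusted p = 0.716 by the same moderated t). Shank1, a scaffold of mature spines, had the largest estimate of the set at 0.57 in the authors' deposited table, a fold of 1.49 (unadjusted p = 0.0899, adjusted p = 0.55). Its interval, from -0.11 to 1.26, was wider, with a residual SD of 0.40 against 0.24 for Shank2. Only 2.6% of all genes had a higher estimate than Shank1, but at this spread an absence of change and a fold of 2.39 both lay within the interval. Shank3 stood at 0.32 with an SE of 0.28 in the authors' deposited table (unadjusted p = 0.274). The intervals of all 3 Shank genes overlapped each other along most of their length.

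The Homer estimates lay on both sides of 0. Homer1 stood at 0.15 with an SE of 0.26 in the authors' deposited table (unadjusted p = 0.58), with an interval from -0.43 to 0.73. Homer2, a long Homer form with a coiled coil, stood at 0.28 with an SE of 0.38, the widest error of the set (unadjusted p = 0.472). Homer3, also a long form, was the one member below 0, at -0.37 with an SE of 0.18 in the authors' deposited table (unadjusted p = 0.0587, adjusted p = 0.543). Its interval ran from -0.76 to 0.02, and 10.8% of all genes had a smaller unadjusted p. Homer3 was also the least expressed member, at a mean log2 expression of 2.41 and percentile 16.6 of all genes.

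The Dlg genes all had estimates above 0 with cocaine, from 0.12 to 0.42. Dlg2 was highest, at 0.42 with an SE of 0.23 in the authors' deposited table, a fold of 1.34 (unadjusted p = 0.0903, adjusted p = 0.55), with an interval from -0.08 to 0.93. Dlg3 stood at 0.23 with an SE of 0.14 in the authors' deposited table (unadjusted p = 0.128). Dlg4 and Dlg1 were lowest of the family, at 0.14 (SE 0.18) and 0.12 (SE 0.11) in the authors' deposited table. Dlg1 was measured most tightly of all members, and its interval, from -0.12 to 0.36, left out folds above 1.29 and below 0.92.

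**Figure D2:**
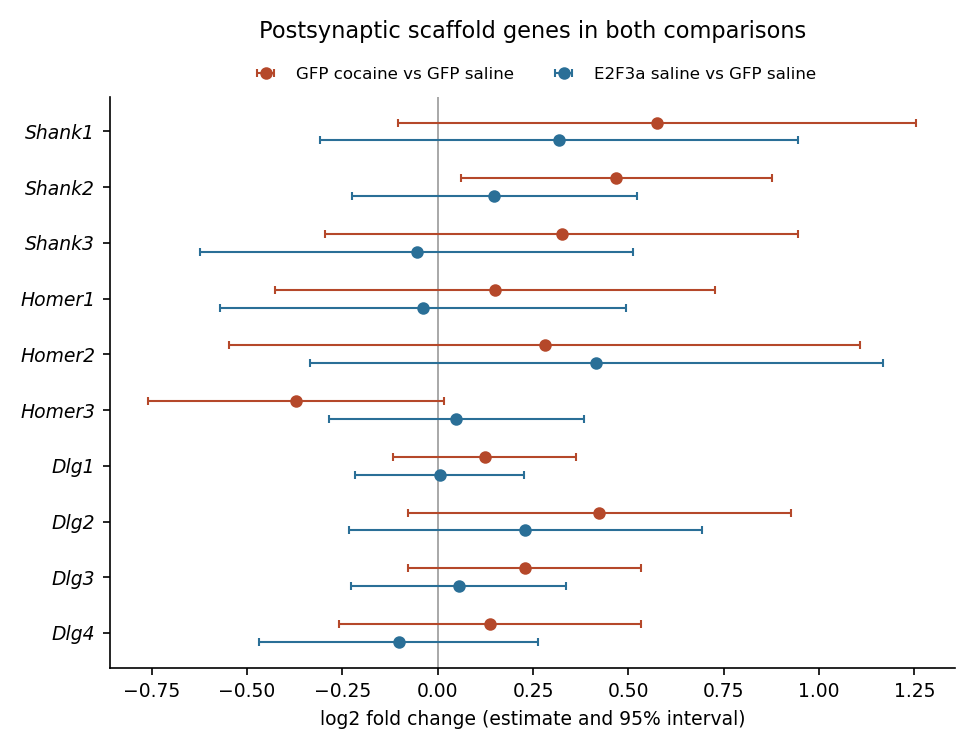
Log2 fold change (x axis) of each scaffold gene with its 95% interval, for cocaine against saline in GFP mice (red, 3 against 4 mice) and for E2F3a against GFP in saline mice (blue, 4 against 4 mice). Only the cocaine interval of Shank2, from 0.06 to 0.88, leaves out 0. The 4 control mice are shared by both.

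Overexpression of E2F3a was compared with that of GFP under saline. No scaffold gene stood apart from 0, and the estimates were spread on both sides of it. By the authors' moderated test 0 of 10 members passed an adjusted p of 0.05, as did 0% of all genes. At an unadjusted p under 0.05 the count was also 0 of 10 in either direction, where 0.545% of all genes were higher and 0.409% lower. With a fold over 1.3 required as well it was 0 of 10, against 0.586% of all genes. The median log2 fold change of the members was 0.05 in the authors' deposited table and that of all genes 0.01, with 7 of 10 members above 0 against 52.5% of all genes.

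Homer2 had the highest estimate with E2F3a, at 0.42 with an SE of 0.34 in the authors' deposited table (unadjusted p = 0.249), and its interval ran from -0.34 to 1.17. Shank1 followed at 0.32 with an SE of 0.29 (unadjusted p = 0.288), then Dlg2 at 0.23 with an SE of 0.21 (unadjusted p = 0.299) and Shank2 at 0.15 with an SE of 0.17 (unadjusted p = 0.401), all in the authors' deposited table. These 4 were the members with the longest annotated transcripts. For Homer2 the longest has 10982 bases and 290 codons, where its form with 354 codons has 1634 bases. Dlg3 stood at 0.06, Homer3 at 0.05 and Dlg1 at 0.01 in the authors' deposited table. Homer1 (-0.04, SE 0.24), Shank3 (-0.06, SE 0.26) and Dlg4 (-0.10, SE 0.17) lay below 0 in the authors' deposited table. The interval of Dlg1, from -0.22 to 0.23, left out folds above 1.17 and below 0.86, and that of Dlg4 left out folds above 1.20 and below 0.72. Adjusted p was 1.00 for all 10 genes.

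**Figure D3:**
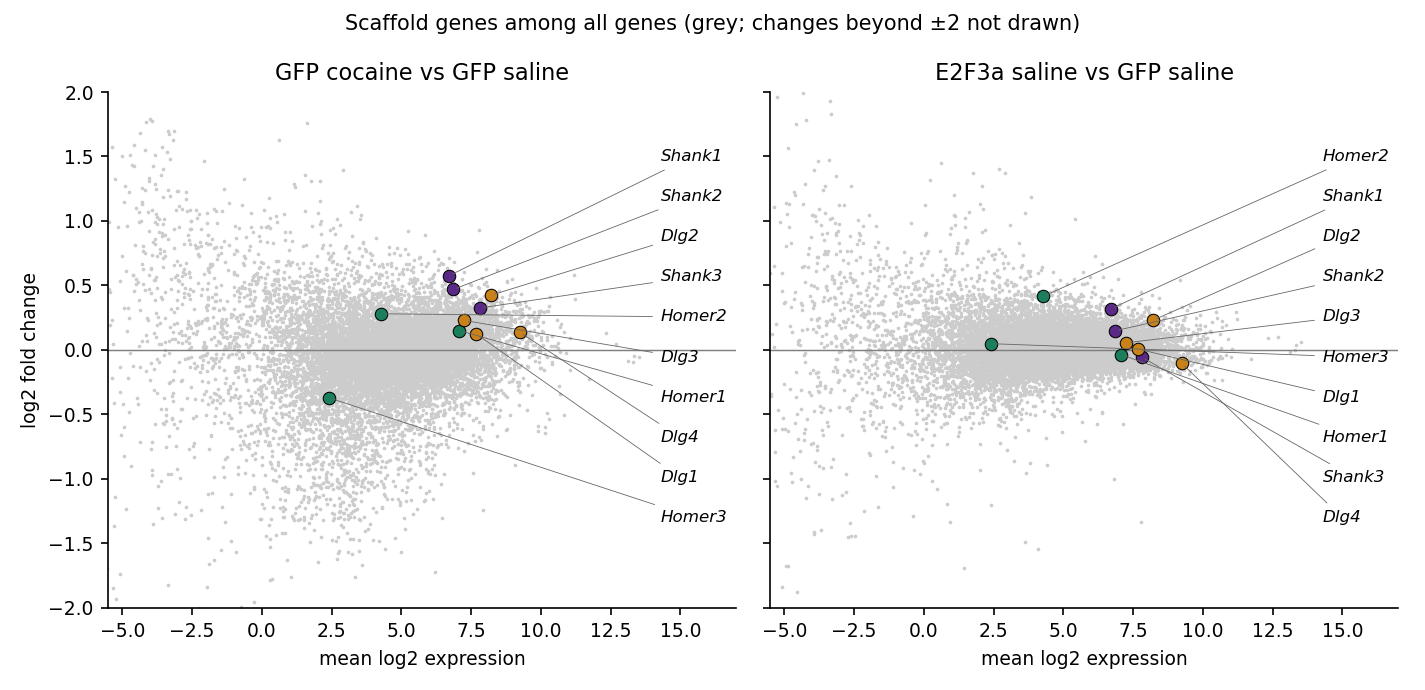
Log2 fold change (y axis) against mean log2 expression (x axis) for all genes (grey points, with changes beyond ±2 not drawn) and the 10 scaffold genes (coloured by family and named), in each comparison. With cocaine 9 scaffold genes lie above 0 and Homer3 lies at -0.37. With E2F3a they run from -0.10 to 0.42.

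E2F3a with saline and GFP with cocaine were also set against each other, by the difference of both deposited fold changes. Both tables share their 4 control mice, and that difference leaves those controls out. The SE was approximated with equal weight per library. Of the 10 members 8 were lower with E2F3a than with cocaine, with a median difference of -0.19 against 0.03 over all genes. By this approximate moderated test 0 of the 10 passed an adjusted p of 0.05 over all genes (0% of all genes passed). At an unadjusted p under 0.05, 1 member was higher with E2F3a, where 4.11% of all genes were, and 0 were lower, where 0.43% of all genes were. That member was Homer3, at a difference of 0.42 (SE 0.17, 95% interval 0.05 to 0.80, unadjusted p = 0.0311, adjusted p = 0.925). Homer3 is the gene whose exons overlap those of Ddx49. The next smallest p was that of Shank2, at -0.32 (SE 0.18, 95% interval -0.73 to 0.09, unadjusted p = 0.111). For Shank3 the difference was -0.38 with an SE of 0.28. For the Dlg genes it ran from -0.24 (Dlg4) to -0.12 (Dlg1).

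The partners of the scaffolds were described in the same way, from lists by role. At an unadjusted p under 0.05, 1.74% of all genes were higher with cocaine and 7.51% lower, and with E2F3a 0.545% and 0.409%. The SAPAP adaptors Dlgap1 to Dlgap4, which bridge Dlg and Shank, all had estimates above 0 with cocaine, with a median of 0.20, and 0 of 4 had an unadjusted p under 0.05. Dlgap2 stood at 0.50 (SE 0.27), Dlgap4 at 0.24 (SE 0.14), Dlgap1 at 0.16 (SE 0.15) and Dlgap3, the SAPAP most typical of the striatum, at 0.02 (SE 0.29) in the authors' deposited table. With E2F3a the SAPAP estimates lay on both sides of 0, with Dlgap3 lowest at -0.32 (SE 0.26) in the authors' deposited table. Of 10 other guanylate kinase and MAGI scaffolds and Lin7 adaptors, 1 was higher with cocaine at an unadjusted p under 0.05 and 0 lower. It was Lin7a, which binds the kinase-like scaffold Cask, at 0.50 (SE 0.21, unadjusted p = 0.0327) in the authors' deposited table. Magi2 stood at 0.30 (SE 0.14), Magi3 at 0.21 (SE 0.16) and Mpp2 at 0.20 (SE 0.13) in the authors' deposited table. With E2F3a 0 of these 10 had an unadjusted p under 0.05, where the authors' deposited table gives Lin7a at 0.34 (SE 0.19).

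The 18 signalling proteins of the postsynaptic density had a median of 0.27 with cocaine, and 15 estimates lay above 0. At an unadjusted p under 0.05, where 1.74% of all genes were higher and 7.51% lower, 0 of the 18 were called. The 4 with the smallest p were Lrrc7, which encodes densin-180, at 0.66 (SE 0.34), Tiam1 and Kalrn, exchange factors for Rac, at 0.40 each (SE 0.19 and 0.22), and Ppp1r9a, which encodes neurabin, at 0.35 (SE 0.20), all in the authors' deposited table. The 19 receptors and channels had a median of 0.19, with 18 estimates above 0 and again 0 with an unadjusted p under 0.05. Grin2b, the NMDA receptor subunit whose tail binds PSD-95, stood at 0.53 (SE 0.25, unadjusted p = 0.0537) in the authors' deposited table. Cacng8, an auxiliary subunit of AMPA receptors, stood at 0.32 (SE 0.17), and the AMPA receptor subunits Gria1 and Gria2 at 0.23 (SE 0.12) and 0.26 (SE 0.14), in the authors' deposited table. All 10 adhesion proteins had estimates above 0 with a median of 0.16, and 0 passed an unadjusted p of 0.05. Lphn3, a latrophilin now called Adgrl3, stood at 0.41 (SE 0.20), Lrrtm2 at 0.21 (SE 0.15), Adam22 at 0.20 (SE 0.12) and Nlgn1, a neuroligin, at 0.15 (SE 0.10) in the authors' deposited table. With the trend in length and expression over all genes removed, the cocaine medians were 0.12 for the signalling proteins, 0.12 for the receptors and channels and 0.0060 for the adhesion proteins, and those of the SAPAP adaptors and the other scaffolds were 0.11 and 0.14, against 0.03 over all genes. With E2F3a the medians of the signalling, receptor and adhesion lists as deposited were 0.03, -0.01 and -0.03. Of their 47 genes 0 had an unadjusted p under 0.05, where 0.545% of all genes were higher and 0.409% lower.

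Enzymes that attach or remove palmitate, among them ones that act on PSD-95 and so govern its place at the synapse, lay close to 0. Their median was -0.05 with cocaine and -0.01 with E2F3a over 8 genes. In either comparison 0 of 8 had an unadjusted p under 0.05. Over all genes 1.74% were higher and 7.51% lower with cocaine by that rule, and 0.545% and 0.409% with E2F3a. Zdhhc17 stood at 0.15 (SE 0.09), Zdhhc5 at 0.02 (SE 0.16), Zdhhc2 at -0.06 (SE 0.11) and the depalmitoylating enzyme gene Abhd17a at -0.11 (SE 0.17) with cocaine in the authors' deposited table. Genes that neuronal activity induces, as it does Homer1a, were not called in either comparison (0 of 5 at an unadjusted p under 0.05 in each). With E2F3a their median was -0.41, where Homer1 stood at -0.04. In the authors' deposited table for E2F3a, Npas4 stood at -0.96 (SE 0.45, unadjusted p = 0.0573), Arc at -0.70 (SE 0.36, unadjusted p = 0.0737), Fos at -0.41 (SE 0.22) and Nr4a1 at 0.13 (SE 0.33). With cocaine the median of the 5 was 0.22. With the trend in length and expression over all genes removed, the cocaine medians were 0.30 for these 5 genes and 0.03 for the palmitoylation enzymes, against 0.03 over all genes.

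Markers of other cell types differed in the same comparisons, and their part in the scaffold values was not tested. Pan-neuronal markers had a median of 0.03 with cocaine and medium spiny neuron markers 0.09, below the 0.25 of the scaffold genes, and 0 of these 8 and 12 genes had an unadjusted p under 0.05. Once the trend in length and expression was taken out, these cocaine medians were 0.0050 for pan-neuronal markers, 0.07 for medium spiny neuron markers and 0.13 for the scaffold genes. Rbfox3, which encodes the neuronal nuclear protein NeuN, stood at 0.17 (SE 0.18) and Syt1, of synaptic vesicles, at 0.12 (SE 0.12) with cocaine in the authors' deposited table. Pdyn and Adcy5, of medium spiny neurons, stood at 0.26 (SE 0.36) and 0.22 (SE 0.31) with cocaine in the authors' deposited table. All 5 blood cell genes and all 8 leukocyte genes were lower with cocaine at an unadjusted p under 0.05, with medians of -1.54 and -1.27. Over all genes 7.51% were lower with cocaine by that rule. These marker lists were chosen with earlier results of these data known. Microglia markers had a median of -0.39 with 4 of 8 lower by that rule, endothelial markers -0.21 with 3 of 6 lower, astrocyte markers 0.05 with 2 of 8 lower, and oligodendrocyte markers -0.03 with 0 of 8. With E2F3a the 5 blood cell genes were again lower at an unadjusted p under 0.05 (median -0.87), where 0.409% of all genes were. So were 1 of 8 leukocyte genes (median -0.45) and 1 of 6 endothelial genes (median -0.02). Astrocyte, oligodendrocyte and microglia markers had medians of 0.14, 0.15 and -0.0010 with E2F3a, with 0 of 8 each.

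Cortical excitatory neurons also express these scaffolds and lie near the nucleus accumbens. Of their 8 markers, 5 are described here. Their median was -0.34 with cocaine, where 0 of 5 had an unadjusted p under 0.05. It was 0.32 with E2F3a, where 1 of 5 was lower and 0 higher by that rule. Over all genes 7.51% were lower with cocaine by that rule and 0.409% with E2F3a. In the authors' deposited tables Nrgn, a calmodulin-binding protein that striatal neurons also express, stood at -0.43 (SE 0.20) with cocaine and at -0.57 (SE 0.19, unadjusted p = 0.0119) with E2F3a. Slc17a7, the vesicular glutamate transporter of cortical neurons, and Tbr1, a cortical transcription factor, were chosen after their values were seen, for their wide errors. In the authors' deposited tables Slc17a7 stood at -1.18 (SE 1.67) with cocaine and 0.73 (SE 1.22) with E2F3a, and Tbr1 at -0.34 (SE 1.15) and 0.66 (SE 0.95). With E2F3a both estimates had the sign opposite to that of Nrgn. Camk2n1, another of the 5, had the sign of Nrgn in both comparisons. It stood at -0.25 (SE 0.23) with cocaine and -0.22 (SE 0.22) with E2F3a in the authors' deposited tables. Cux2, of upper cortical layers, stood at 0.54 (SE 0.25) with cocaine and 0.32 (SE 0.24) with E2F3a in the authors' deposited tables.

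**Figure D4:**
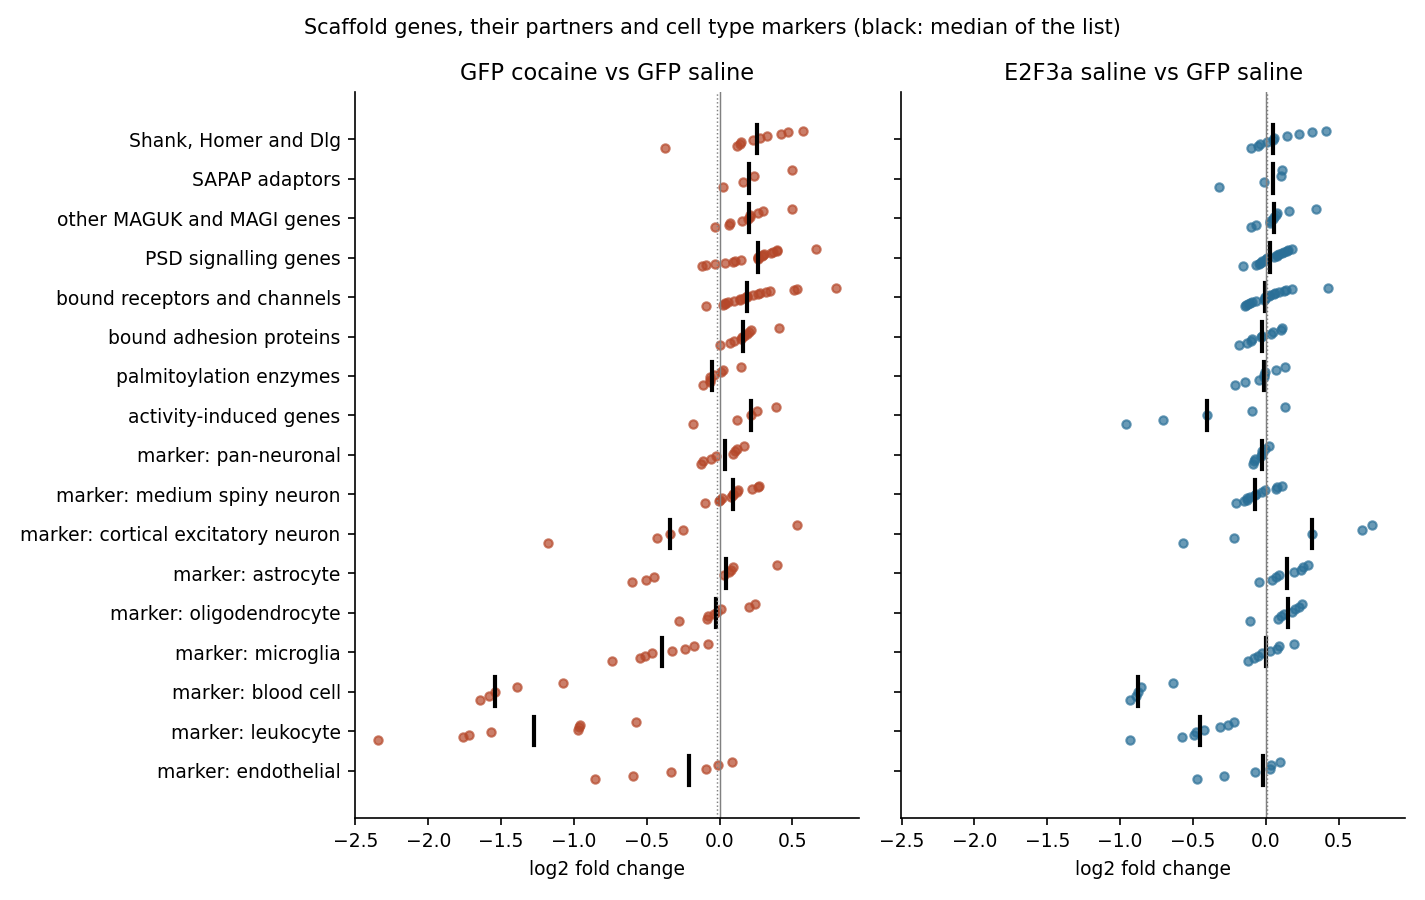
Log2 fold change (x axis) of each gene (points) in the scaffold set, in lists of its partners and in cell type marker lists (y axis), with the median of a list as a black bar and the median of all genes as a dotted line, for both comparisons. With cocaine the median of the scaffolds (0.25) lies to the right of that of the pan-neuronal markers (0.03), that of the palmitoylation enzymes (-0.05) to its left, and blood cell and leukocyte markers lie far to the left (-1.54 and -1.27).

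The scaffold genes are long, and fold changes varied with transcript length over all genes. Of the 10 members 8 were among the 20% of all genes with the longest annotated transcripts (at least 5210 bases). The longest transcripts of Homer1 and Homer2 have 5713 bases (186 codons) and 10982 bases (290 codons). Their forms with the most codons have 4287 bases (370 codons) and 1634 bases (354 codons). Which forms were expressed is unknown, so the lengths used here rest on the annotation. The median log2 fold change of those 20% was 0.12 with cocaine and 0.09 with E2F3a, and that of the 20% with the shortest transcripts was -0.14 and -0.07. Within the set, Homer3, with a longest transcript of 2608 bases, had the lowest cocaine estimate, and Shank1, with 9826 bases, the highest. Spearman's rho between transcript length and the cocaine estimate was 0.77 over the 10 genes and 0.68 over the 9 without Homer3. With E2F3a it was 0.60 and 0.68, as a description of genes that share the same libraries. With the trend in length and expression over all genes removed, the median of the members was 0.13 with cocaine and 0.03 with E2F3a. The largest cocaine residuals were those of Shank1 (0.37), Shank2 (0.29) and Dlg2 (0.25), and that of Dlg4 was -0.0068. What sets the trend was not tested.

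**Figure D5:**
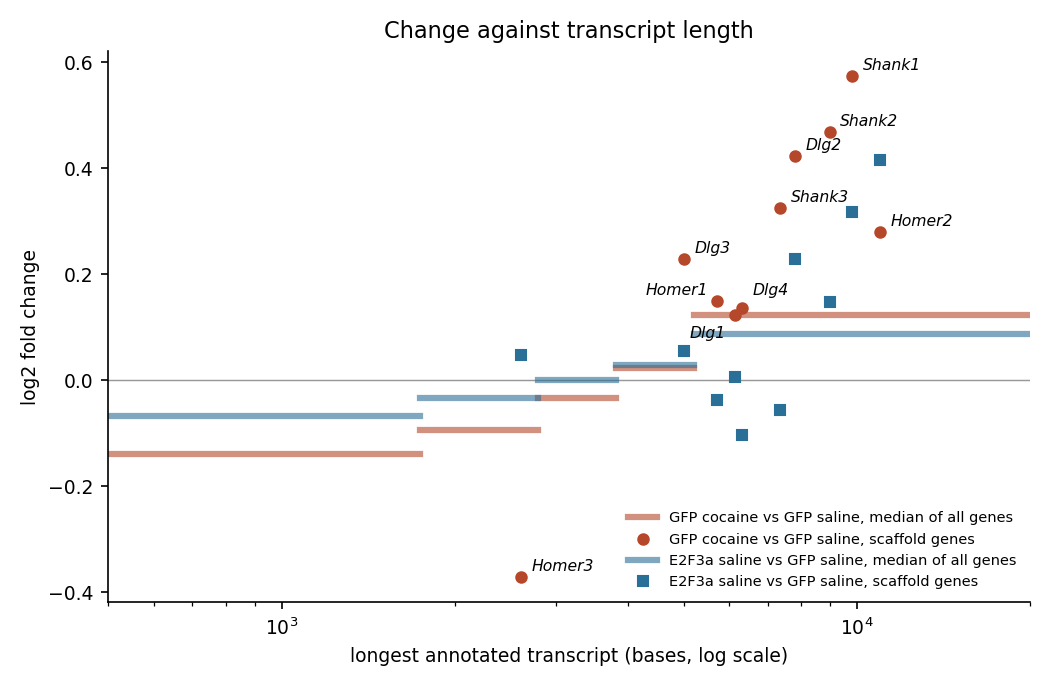
Log2 fold change (y axis) against the longest annotated transcript in bases (x axis, log scale) for the scaffold genes with cocaine (red circles, named) and with E2F3a (blue squares), and the medians of all genes in classes of transcript length that hold 20% of the genes each (horizontal lines). With cocaine, Shank1, Shank2, Dlg2 and Shank3 lie above the 0.12 of the longest class by the most, and Homer3 lies at -0.37.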

How the data were processed

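Poly-A RNA of 1 mouse per library was sequenced as single-end reads, per the labels' protocols. Per the submitters' processing notes, the build was mm10 and the tools included HTSeq 0.6.0, TopHat2 2.0.9 and Bowtie2 2.1.0, with no role stated. The same 14667 genes fill both tables that the authors deposited. Per the file headers these give log2 values (a fold change and a mean expression), score columns (a moderated t and log odds, named as in limma), and unadjusted and adjusted p-values. The sources used here do not give the normalization, the filter or the program of the test. Mean expression was identical in both tables.

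Without values per library, the count tests planned were replaced by the deposited statistics, as the design allowed. Dividing the log2 fold change by t gave the SE, and 95% intervals use 11.29 degrees of freedom, which match the deposited p-values. Over all genes the mean squared t, divided by its nominal value, was 0.588 with E2F3a and 1.46 with cocaine. Whether the p-values and intervals hold their nominal rates was not tested. The adjusted p is Benjamini-Hochberg over all genes. The residual SD and the comparison of E2F3a with cocaine assume equal weight per library. Transcript lengths (found for 99.4% of genes) and exons came from GENCODE M21, promoter windows from RefSeq, and trends were cubic polynomials. The labels give no batch, and the p-values set each change against the spread between these mice. The members and the 16 other lists (142 of 145 genes had a row, 4 under an older symbol) were chosen with earlier results of these data known. Up to 4 genes per partner list and 2 per marker list with the smallest p in either comparison were named. Ddx49, which overlaps Homer3, and the markers Slc17a7, Tbr1 and Camk2n1 were named outside that rule. Scripts (Python 3.11.15, numpy 2.4.6, scipy 1.17.1, pandas 2.3.3, matplotlib 3.10.9) were tested on simulated data. Alternatives were other thresholds, an expression floor, centring, trend removal, the mean, another SE and another length.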

Additional observations from a re-analysis of the deposited data

How the results depend on the processing

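Under the alternatives run, the count of scaffold genes past an adjusted p of 0.05 stayed at 0 in both deposited comparisons. This held at an adjusted p of 0.1, and with p adjusted over the 11000 genes with a mean log2 expression of at least 3.21. Homer3 lies below that floor, so only 9 members were counted there. At an adjusted p of 0.1, 0% of all genes passed in either comparison, so that threshold could not add a member. In the comparison of E2F3a with cocaine the count stayed at 0 with the SE of the cocaine comparison. At an unadjusted p under 0.05, alone or with a fold over 1.3, the count was 1 with cocaine and 0 with E2F3a, on the estimates as deposited. Estimates near 0 changed sign. Dlg4 with cocaine became -0.0068 once the trend in length and expression was removed, and Dlg1 with E2F3a became -0.002 when centred on the median of all genes and -0.054 with the trend removed. The medians kept their direction, from 0.13 to 0.27 with cocaine and from 0.03 to 0.10 with E2F3a, and E2f3 ranged from 0.97 to 1.01. No paired analysis was possible because the tables hold no value per library, and leaving out each replicate was not run for the same reason. Depth is unknown. To pass an adjusted p of 0.05 as the only gene, a member would need a log2 change from 0.92 (Dlg1) to 3.16 (Homer2) with cocaine and from 0.85 to 2.88 with E2F3a.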
